A study of Mus musculus with 2 samples.

Results

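Mir126a and Mir126b are miRNA genes on opposite strands of the same stretch of chromosome 2, inside the endothelial gene Egfl7. They are 2 of the 2202 miRNA gene rows of the count tables and were found by the Ensembl gene identifiers that the GENCODE M21 annotation gives these symbols, with no use of their counts. MicroRNA was sequenced from the gastrocnemius, a calf muscle, of B6CASTF1/J males (F1 hybrids of a laboratory strain and the CAST strain) at 25 days of age, with 2 libraries in 1 group and no other condition. The labels describe separate males under 1 shared donor identifier, and the spread between the libraries, with every SD below, may therefore be technical. Replicate 1 had 1491341 reads assigned to miRNA genes on the gene's own strand and replicate 2 had 2028332, and counts are given scaled to these totals as CPM. Another 69.8% and 71.8% of all reads aligned to several loci and are in no gene row.

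A miRNA is cut from a hairpin-shaped precursor, and either arm of the hairpin can be loaded into the silencing complex. Bases 2 to 8 of the loaded strand, the seed, pair with target mRNAs. The miRNA miR-126 is known as a marker of endothelial cells, which line the capillaries between muscle fibres. Its targets Spred1 and Pik3r2 restrain VEGF signalling, and its host Egfl7 encodes a secreted protein of the vessel wall. Mir126b is annotated on the strand that Egfl7 does not use.

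The precursors are shown first because their complementarity decides how reads are counted. In the hairpins the capitals mark the mature sequences listed by RefSeq (build GRCm38.p6), and in the mature sequences they mark the seed. The RefSeq listing used has no mature sequence for miR-126a-5p, the first arm of Mir126a, so that arm is not marked.
Mir126a hairpin: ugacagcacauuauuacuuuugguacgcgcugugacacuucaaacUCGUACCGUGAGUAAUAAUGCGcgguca
Mir126b hairpin: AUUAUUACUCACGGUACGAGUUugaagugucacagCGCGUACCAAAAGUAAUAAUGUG
miR-126a-3p: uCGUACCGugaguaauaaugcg
miR-126b-5p: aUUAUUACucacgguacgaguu
miR-126b-3p: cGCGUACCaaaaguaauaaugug
Mir126a (ENSMUSG00000065540.1) lies at chr2:26591357-26591429 on the plus strand, and Mir126b (ENSMUSG00000105799.1) at chr2:26591363-26591420 on the minus strand. The Mir126b hairpin of 58 bases is the exact reverse complement of bases 7 to 64 of the Mir126a hairpin of 73 bases. This leaves 6 bases of Mir126a before the overlap and 9 after it. The sequences in GENCODE M21 are identical to those in RefSeq for both hairpins.

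Egfl7 (ENSMUSG00000026921.18) spans 26580014 to 26593120 on chromosome 2, on the same strand as Mir126a. The Mir126a hairpin was intronic in 8 of the 19 annotated Egfl7 transcripts, exonic in 1, a retained-intron transcript, and outside the other 10. In 6 transcripts it lay in an intron of 600 bases (26591064 to 26591663), which is intron 7 of 4 of them and intron 6 of 2. The hairpin began 293 bases after the start of that intron and ended 234 bases before its end.

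The mature sequences of opposite strands also overlap. The last arm of Mir126a, miR-126a-3p, occupies bases 46 to 67 of its hairpin, and miR-126b-5p lies across from bases 43 to 64, so 19 bases of these face each other. The arm miR-126b-3p lies across from bases 7 to 29. Because a hairpin folds on itself, its reverse complement folds as well: RNAfold predicted a stem of 27 base pairs for Mir126a with a minimum free energy of -31.2 kcal/mol, and 21 base pairs with -19.3 kcal/mol for Mir126b. In the Mir126a fold, 19 of the 22 bases of miR-126a-3p were paired, including all 7 of its seed.

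**Figure D1:**
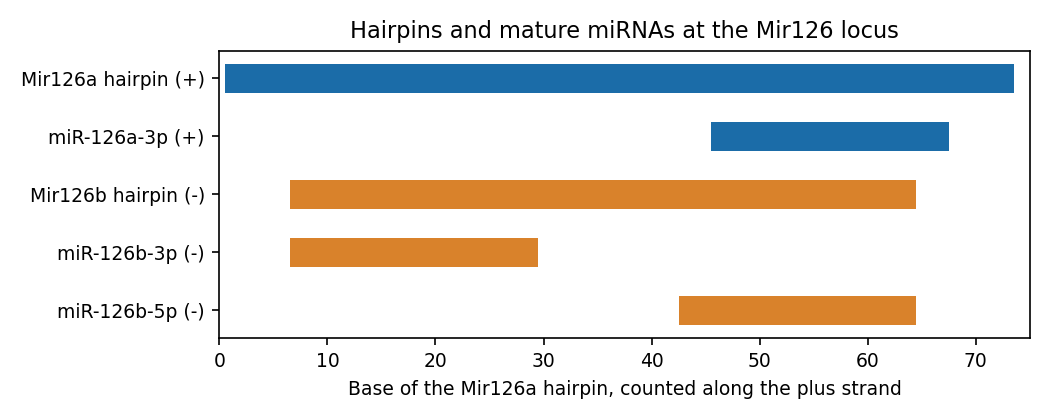
Positions of both hairpins and of the mature sequences listed by RefSeq, in bases along the Mir126a hairpin (x axis), with plus-strand features in blue and minus-strand features in orange. Mir126b covers bases 7 to 64 of the Mir126a hairpin, and miR-126a-3p at bases 46 to 67 extends past its end.

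The deposited tables hold 3 counts for each gene, which are called here the column without strand, the sense column (the gene's own strand) and the opposite column. On its own strand Mir126a had 116735 counts in replicate 1 and 177529 in replicate 2. On the opposite strand it had 0 and 1 counts. Without regard to strand it also had 0 and 1. The gene was therefore abundant in 1 column and nearly empty in the other 2, in both libraries.

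The Mir126b row is the mirror image. On its own strand Mir126b had 0 counts in replicate 1 and 1 in replicate 2, and without regard to strand it had 0 in both. On the opposite strand it held 116735 and 177528 counts. In replicate 1 this is exactly the Mir126a count. In replicate 2 it is 1 below the Mir126a count, and 1 is also what Mir126a kept in the column without strand. The large Mir126b values are thus the Mir126a reads counted from the other side, and the 1 count on the opposite strand of Mir126a equals the 1 count of Mir126b.

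**Figure D2:**
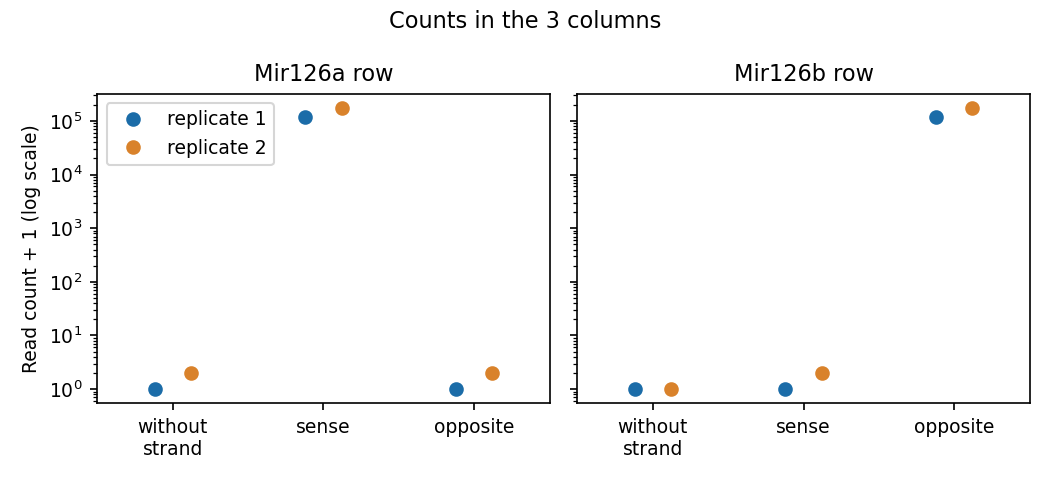
Read count + 1 on a log axis for the Mir126a row (left) and the Mir126b row (right) in each of the 3 columns, with blue points for replicate 1 and orange points for replicate 2. Mir126a reads appear on the strand of Mir126a and on the opposite strand of Mir126b, and no point of the column without strand lies above 1 count.

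The reads missing from the column without strand were in the summary row for reads that overlap several genes. That row held 377691 reads in replicate 1 and 511221 in replicate 2 without regard to strand, and 0 in both stranded columns. The Mir126 pair accounted for 30.9% and 34.7% of it. Across all genes, 25.3% of the sense counts in replicate 1 and 25.2% in replicate 2 were lost when strand was ignored.

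With strand used, Mir126a had 78275 CPM in replicate 1 and 87525 CPM in replicate 2, a mean of 82900 ± 6540 CPM (SD, n = 2). It held 7.83% of miRNA gene counts in replicate 1 (exact 95% interval, Clopper-Pearson, 7.78 to 7.87) and 8.75% in replicate 2 (8.71 to 8.79). Intervals and floors reflect the number of reads alone, which may hold PCR copies of the same molecule. Of all reads of the files, those aligned to several loci included, it held 1.56% and 1.80%. The gene rows do not separate the arms of a hairpin, so how the counts divide between miR-126a-5p and miR-126a-3p was not analysed here. As this is bulk tissue, more endothelial cells and more miR-126 per cell cannot be told apart.

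Mir126b had 0 CPM in replicate 1, where the floor of 3 counts that a 0 allows is 2.01 CPM, and 0.493 CPM in replicate 2, where that floor is 1.48 CPM. Both libraries are at or under that floor, so no fold between the hairpins was computed from it. The 1 opposite-strand count came from 294265 stranded counts at the locus in both libraries, or 3.40 per 1000000 (exact 95% interval 0.0860 to 18.9). Over the 2138 genes that overlap no miRNA gene on the opposite strand, there were 44 opposite-strand counts beside 2630760 sense counts, or 16.7 per 1000000 (12.2 to 22.5). Of these genes 15 had any opposite-strand count, and so did 1 of the 24 with at least 10000 counts in both libraries. That 1 gene, Mirlet7b, had 3 and 1 opposite-strand counts in replicates 1 and 2, beside 29620 and 31481 sense counts. Mir122 had 6 and 2, beside 20 and 23. The pooled rate may therefore not hold for an abundant gene. The interval at the Mir126 locus overlaps the pooled rate, and Mir126b reads were not detectable above that pooled rate at this depth. Whether they exceed the rate of abundant genes alone was not tested.

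Mir126a ranked the second of all gene rows by mean CPM and the second in each library. Mir378a, in the metabolic coactivator gene Ppargc1b, was above it with 149905 and 139160 CPM. The 4 genes ranked next below were Mir23b with 65080 and 65180 CPM, Mir143 with 55093 and 73266, Mir23a with 56667 and 67128 and Mirlet7g with 62346 and 53968. The lower library of Mir126a lay above the higher library of each of these 4 genes and its higher library lay below both libraries of Mir378a, whereas the ranges of Mir143, Mir23a and Mirlet7g overlapped each other. A miRNA read spans a whole mature molecule, so counts were not divided by length; per hairpin base Mir126a also ranked the second.

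**Figure D3:**
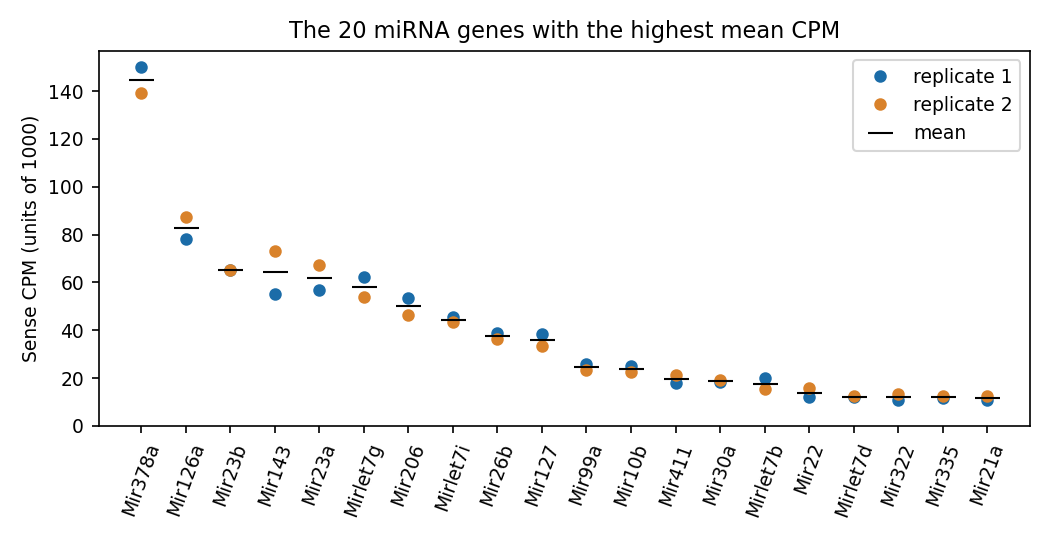
Sense CPM, in units of 1000, for the 20 miRNA genes with the highest mean, with blue points for replicate 1, orange points for replicate 2 and black bars for the mean. Mir126a lies between Mir378a and the group of Mir23b, Mir143, Mir23a and Mirlet7g, with no overlap with either.

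Reads that align to several loci are left out, so a gene that shares sequence with another locus can be undercounted in this order. No 20-base stretch of the Mir126a or Mir126b hairpin occurs in a miRNA gene at another locus, whereas 1087 of the 2202 genes share such a stretch. Mir378a is among those, and so are Mir23a and Mir23b. Among the genes that share no stretch Mir126a ranked the first. On the same strand, the nearest match of miR-126a-3p in any other hairpin had 8 mismatches. In annotated transcripts outside the miRNA rows its sequence occurred in 1 Egfl7 transcript, the one that retains the intron.

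Between the libraries Mir126a was 1.13-fold higher in replicate 2 than in replicate 1, a log2 ratio of 0.17 after TMM scaling (exact 95% interval 0.16 to 0.18). The exact binomial test with Benjamini-Hochberg adjustment over 313 genes gave an adjusted p of 3.14e-218. That test includes counting error only and compares 2 libraries, not conditions. It called 38.3% of the 313 genes, 19.8% as higher in replicate 2 and 18.5% as lower, and 19 of the 20 genes with a mean of at least 10000 CPM. With the spread between the libraries added in edgeR's exact negative binomial test, Mir126a did not pass (adjusted p = 1), and 0 of the 313 genes did, with 15 at an unadjusted p under 0.05. The spread in that test was taken from the same 2 libraries, which weighs against passing any gene. Of all tested genes, some with as few as 10 counts, 71.9% had a larger absolute log2 ratio than Mir126a. Among the 20 abundant genes Mir126a was near the middle: 10 had a larger absolute log2 ratio, and their median was 0.18. The median log2 ratio of all tested genes was 0.05.

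The other 27 genes of a list linked to endothelium and angiogenesis all had counts. Together they held 18.3% of counts in replicate 1 and 19.4% in replicate 2. Among the 23 that could be tested, 7 passed as higher in replicate 2, 2 as lower (Mir10b and Mir100) and 14 did not pass, beside the 19.8% and 18.5% of all tested genes. Their median log2 ratio was 0.14, beside 0.05 over all tested genes. They were led by Mir23b, Mir23a and Mir10b, which many cell types express, with 65130 ± 71.0, 61898 ± 7397 and 23772 ± 1584 CPM (SD, n = 2).

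Mir221 and Mir222, which restrain the KIT receptor and act in endothelial cells, were far lower. Mir221 had 350 and 549 counts and Mir222 had 22 and 49. Mir126a exceeded Mir221 by 334-fold and 323-fold in replicates 1 and 2. The hypoxia-induced Mir210 had 15 and 22 counts. Of these 27 genes 12 share a 20-base stretch with another locus and can be undercounted, but Mir221, Mir222 and Mir210 are not among them.

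Mir143 and Mir145a mark the smooth muscle cells and pericytes around vessels. Counts of Mir126a exceeded those of Mir143 by 1.42-fold in replicate 1 and 1.19-fold in replicate 2, and those of Mir145a by 20.8-fold and 16.1-fold. Both mural genes were higher in replicate 2 (exact binomial test, log2 ratios 0.42 and 0.54), beside 19.8% of all tested genes, and their list, with Mir145b at 1 count in each library, held 5.89% of counts in replicate 1 and 7.87% in replicate 2. The ratio of Mir126a to Mir143 was thus lower in replicate 2, the library in which Mir126a itself was higher.

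Markers of blood cells, which can remain in the vessels of a tissue, were lower than Mir126a by 66.4-fold or more. The most abundant were Mir150, of lymphocytes, with 1758 and 1711 counts, and Mir155, of activated leukocytes, with 1581 and 1750. Mir126a exceeded Mir150 by 66.4-fold in replicate 1 and 104-fold in replicate 2, and Mir155 by 73.8-fold and 101-fold. The red cell miRNA gene Mir451a had 201 and 587 counts, and Mir126a exceeded it by 581-fold and 302-fold. Mir223, of myeloid cells and platelets, had 336 and 645 counts, and Mir126a exceeded it by 347-fold and 275-fold. The 8 genes of the blood cell and platelet list held 0.416% and 0.366% of counts, with 4 of 8 higher in replicate 2 (Mir451a, Mir144, Mir223 and Mir142) and 4 lower (Mir150, Mir155, Mir146 and Mir486), beside 19.8% and 18.5% of all tested genes. Mir486, with 1227 and 1372 counts, is also in the striated muscle list and enters the shares of both lists. The part of mural or blood cells in the Mir126a difference was not tested.

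Markers of the labelled tissue were present. Mir206, specific to skeletal muscle, had 53367 and 46543 CPM, and Mir126a exceeded it by 1.47-fold and 1.88-fold. Mir1a-2, which shares sequence with another locus, had 660 and 775 counts. The list of 11 striated muscle genes held 5.51% and 4.84% of counts, with 2 of 9 tested members higher in replicate 2 (Mir499 and Mir208b) and 3 lower (Mir206, Mir486 and Mir1a-2), beside 19.8% and 18.5% of all tested genes. Mir499, in the slow myosin gene Myh7b, had 499 and 1084 counts. In the muscle list, 5 of the 11 genes, with Mir1a-2 among them, share a 20-base stretch with another locus and can be undercounted. The others were Mir133b with 18 and 41 counts, Mir133a-1 with 18 and 43, Mir1a-1 with 15 and 23 and Mir133a-2 with 1 and 8. The share held by the muscle list may therefore be too low. These counts do not rank Mir126a against all muscle miRNAs. The 15 genes of liver, brain and epithelium held 0.0243% and 0.0269% of counts. Most of this was Mir203, of skin epithelium, with 317 and 493 counts or 228 ± 21.6 CPM (SD, n = 2). The liver gene Mir122 had 20 and 23 counts, Mir200c, of epithelium, 8 and 12, and Mir375, of endocrine cells, 8 and 7. The brain genes Mir124a-1, Mir124a-2 and Mir124a-3 were at 0 in both libraries. They are among the 6 genes of the list that share a 20-base stretch with another locus and can be undercounted. Their counts of 0 therefore do not show absence. Of this list 0 of 5 tested members passed the exact binomial test, with 0 at an unadjusted p under 0.05 there or in the edgeR test.

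Of 30 listed miRNA genes that, like Mir126a, lie inside a protein-coding gene on the same strand, 1 exceeded it, Mir378a. Mirlet7g, Mir26b, in the phosphatase gene Ctdsp1, and Mir22 followed Mir378a with 58157 ± 5924, 37560 ± 1844 and 13963 ± 2940 CPM. Of the 28 tested members of this list, which did not hold Mir126a, 8 were higher in replicate 2 and 8 were lower, beside 19.8% and 18.5% of all tested genes, with a median log2 ratio of 0.04.

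Opposite-strand overlap is not particular to the Mir126 locus. In all, 64 genes formed 32 such pairs, and 22 pairs had at least 100 sense counts over both libraries. By that sum the pair of Mir126a and Mir126b came after Mir378a with Gm25301 (505823) and before Mir30e with Mir30f (28688), Mir191 with Gm24083 (21475) and Mirlet7e with Gm25927 (9157), while its own sum was 294265. In 14 of the 22 pairs the lower gene had no count. In the remaining 8, Mir126a and Mir126b among them, it had at least 1. Without regard to strand, 31 of the 32 pairs had 0 counts, and the Mir126 pair kept 1. Of the pairs at 0, 5 had no sense count to lose.

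The share of the lower strand differed between loci. It was 0.000340% for Mir126b (exact 95% interval 8.60e-06 to 0.00189). Among the 22 pairs it was highest for Mir3074-1, at 14.5% (8.55 to 22.5), with 8 and 8 counts. Mir24-1, which it faces, had 38 and 56 counts, shares a 20-base stretch with another locus and can be undercounted. The share was 2.55% for Mir3107 (1.99 to 3.22), which faces the erythroid and muscle miRNA gene Mir486, with 43 and 25 counts beside 1227 and 1372. Mir3544, across from Mir337, had 3 and 10 counts and a share of 0.166% (0.0883 to 0.283). These intervals do not overlap that of Mir126b. Counts on the lower strand were therefore measurable at some pairs with far fewer gene counts than the Mir126 locus. The shares are of counts in gene rows only. The search for shared stretches left out overlapping genes, so sequence shared within a pair, as between Mir486 and Mir3107, was not tested. Reads that fit both genes of a pair could be among those left out. The shares may therefore not be comparable between pairs.

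**Figure D4:**
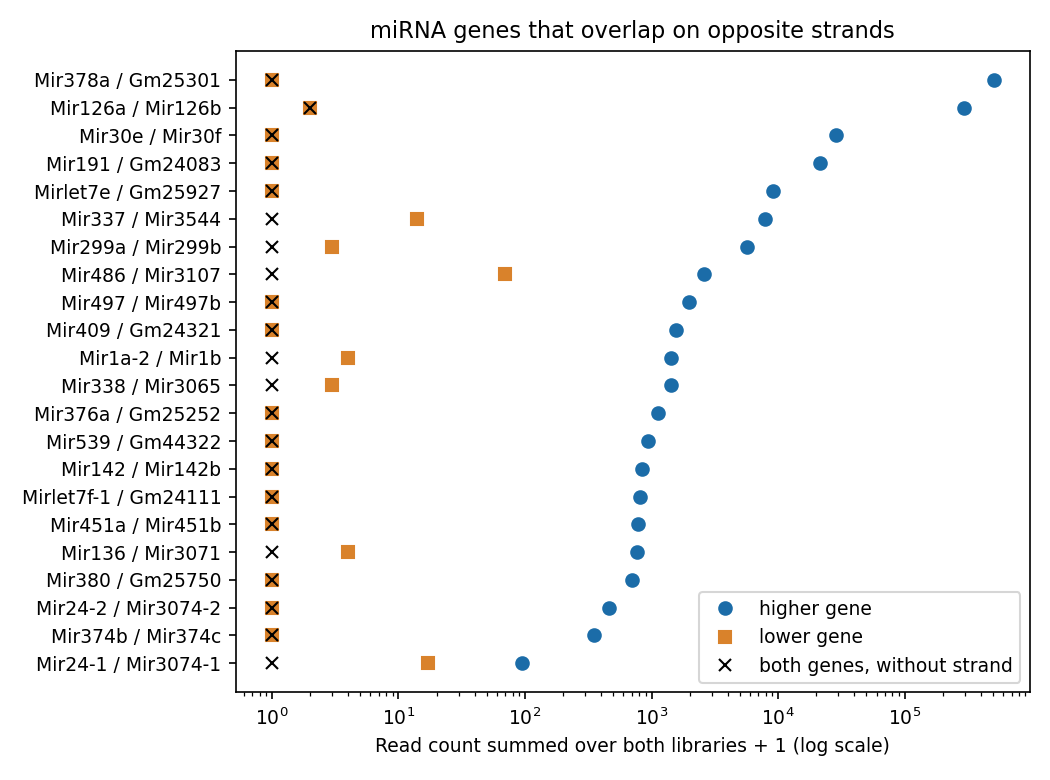
Counts summed over both libraries + 1 on a log axis for the 22 pairs with at least 100 counts, with blue circles for the higher gene on its strand, orange squares for the lower gene on its strand and black crosses for both genes without regard to strand. Mir126a is the second highest circle, its partner Mir126b stands at 1 count, and the crosses of all other pairs are at 0 counts.

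The genes with the most similar pattern over the 6 values (3 columns in 2 libraries) were taken by Euclidean distance on log2(CPM + 1) after the mean of each gene was subtracted. The nearest were Mir378a at a distance of 1.40, Mir30e at 3.61, Mir191 at 4.05 and Mirlet7e at 5.45. All 4 overlap a gene on the opposite strand. The nearest gene without such an overlap, Mir300, stood at 16.1. This split was set by the counting and is not a separate result. Without regard to strand, overlapping genes keep almost no counts and other genes keep almost all of their sense counts.

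The seeds of the locus were compared with the 3′ UTRs of 20998 mouse protein-coding genes (the longest annotated in GENCODE M21 per gene, with a median of 962 bases), because the seed sets which mRNAs a miRNA can pair with. The seed of miR-126a-5p, which the RefSeq table does not list, was not searched. None of the 3 listed seeds is shared with another mature miRNA among the 1679 names in that table. The match searched was the reverse complement of the seed on the transcript strand: CGGTACG for miR-126a-3p, GGTACGC for miR-126b-3p and GTAATAA for miR-126b-5p. The first 2 overlap in 6 letters, since the seeds of miR-126a-3p and miR-126b-3p share the run cguacc, which starts at base 2 of the former and base 3 of the latter. Both mature sequences also share the run aguaauaaug.

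A match to the miR-126a-3p seed occurred in the 3′ UTR of 33 genes, or 0.157%. This was the lowest share among all 1398 distinct seeds, whose median was 10.4% and whose highest was 33.3%. The next lowest had 41 genes. The miR-126b-3p seed matched 98 genes, or 0.467%, the ninth from the lowest, and the miR-126b-5p seed 2360 genes, or 11.2%. The miR-126a-3p match holds 2 CG dinucleotides, which are rare in mammalian DNA. The 18 seeds whose match holds 2 CG had a median of 0.531% and a range of 0.157% to 1.10%, and the 1192 seeds without CG had a median of 11.1%.

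Of the other 19 genes among the 20 most abundant, 17 had mature sequences in the RefSeq table. Seeds of their 33 mature sequences matched between 0.933% and 20.3% of genes, with a median of 10.1%. The seed of miR-126a-3p thus had fewer matches than any of these. These are letter matches in annotated sequence, without regard to conservation or to which mRNAs the muscle expresses.

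**Figure D5:**
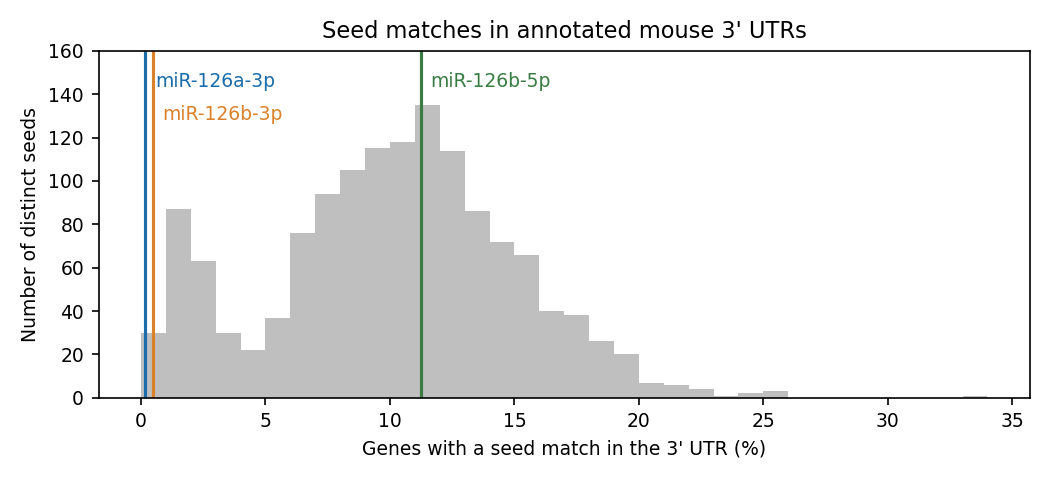
Histogram of the percentage of genes with a seed match in the 3′ UTR (x axis) over the 1398 distinct seeds of mature mouse miRNAs (y axis, number of seeds), with vertical lines for the seeds of miR-126a-3p, miR-126b-3p and miR-126b-5p. The first 2 lie at the left edge at 0.157% and 0.467%, and miR-126b-5p at 11.2% lies near the middle.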

How the data were processed

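The authors' deposited files give raw read counts per miRNA gene in 3 columns without a header, with 4 summary rows, on mm10 with GENCODE M21, per the deposited README files. No source used here names the aligner or counter. The order of the columns (without strand, sense, opposite) was read from the values. Summary rows entered neither library sizes nor tests: reads in no gene, in several genes or at several loci are not in the gene counts. CPM were computed on sense totals. Libraries were compared by exact two-sided binomial tests on genes with at least 10 counts over both, with TMM sizes (edgeR 4.0.16, R 4.3.3), Benjamini-Hochberg adjustment and a threshold of 0.05. The test was checked on simulated counts with counting error only, as the test assumes. That check does not cover further spread between libraries. The negative binomial alternative took 1 common dispersion from the same libraries (biological coefficient of variation 18.0%), which weighs against passing any gene. DESeq2 1.42.0 gave alternative size factors. Overlap on opposite strands meant at least 1 shared base. Stretches of 20 bases were compared on both strands of all hairpins, without overlapping genes. Folds are from RNAfold 2.7.2. Mature sequences and hairpins are from RefSeq, where both genes matched by symbol.

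Members and lists were chosen with earlier results of these data known. Named genes are both members, the 4 rows next in rank on either side (only 1 above), the 4 highest per list, the 5 largest pairs and the 4 most alike. Mirlet7b, Mir3107, Mir3544, Mir3074-1 and Mir300, and the list members with low counts, were chosen after their values were seen.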

Additional observations from a re-analysis of the deposited data

How the results depend on the processing

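The level of Mir126a depended on the column: the mean was 0.330 CPM without regard to strand and 0.978 CPM on the opposite strand, each scaled to the total of its own column. It was 16804 when scaled to all reads and 122671 CPM when genes sharing a 20-base stretch were left out of the total. Under TMM sizes it was 82917 CPM, and it ranged from 78275 to 87525 without 1 of the libraries. The rank moved to 473 without strand, tied with other genes of 1 count in replicate 2, and to 1 among genes without shared sequence. Mir126b stood at 328153 CPM on the opposite strand, which are Mir126a reads. The log2 ratio of Mir126a was 0.16 with total gene counts, 0.17 with DESeq2 sizes and 0.21 with all reads, and passed the exact binomial test in each, but not the edgeR exact negative binomial test (log2 ratio 0.17, adjusted p = 1). That test called 0 genes (0 higher, 0 lower) in place of 120, with 15 at an unadjusted p under 0.05. In the column without strand, Mir126a had too few counts to be tested. Counting all reads gave 14 in place of 8 endothelial list members, Mir126a included, as higher in replicate 2, and 1 in place of 0 for liver, brain and epithelium; the other 58 of 60 list counts stayed within 1.5 times. Counts of called genes under other sizes and filters ranged from 110 to 134, the latter with all reads (80 higher, 54 lower, in place of 62 and 58). The rank per hairpin base was an alternative chosen after seeing the data. No paired analysis was possible because there is 1 group. Depth limits Mir126b, for which the exact 95% upper limit was 2.47 CPM in replicate 1 and 2.75 CPM in replicate 2.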
